A study of Mus musculus with 6 samples.

Results

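The adaptor and kinase genes that carry signals from Toll-like receptors were followed in 6 libraries of RAW 264.7 cells, a mouse macrophage line that forms osteoclasts when driven to differentiate. The genes were Myd88, Tirap, Ticam1, Ticam2, Irak1, Irak2, Irak3, Irak4, Tollip and Ly96, chosen by symbol, and all 10 were found once each among the 23282 gene entries of every library. All cells were at day 5 of osteoclast differentiation, and 3 libraries were labelled control and 3 CPN, and the series title names the protein studied as a 60 kDa chaperonin. The labels gave neither the source, the dose nor the time of addition of the chaperonin, nor the differentiation stimulus. Nor do they say whether the replicates were separate cultures, and the p-values therefore reflect variation among these libraries alone, some of it possibly technical.

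Toll-like receptors sense microbial and damage-derived molecules and pass the signal on through adaptors that share a TIR domain with them. MyD88, recruited with the help of TIRAP, gathers the IRAK kinases into a complex that activates TRAF6 and NF-kB, and interleukin-1 receptors use the same adaptor. TRIF, encoded by Ticam1 and bridged to TLR4 by the product of Ticam2 (TRAM), leads to IRF3 and type I interferon. In bone, RANK also signals through TRAF6, and Toll-like receptor ligands are known both to restrain the differentiation of early osteoclast precursors and to promote the survival of committed ones.

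In CPN cells 3 of the 10 genes were higher, namely Irak3, Ticam2 and Ticam1, and Irak1 was lower. Irak3, which encodes an inhibitory IRAK (IRAK-M), was 11.2-fold higher, Ticam2 was 5.00-fold higher and Ticam1 was 2.62-fold higher. Irak1, encoding a kinase of the MyD88 complex, was 1.76-fold lower. These 4 genes were called by the quasi-likelihood test of edgeR (n = 3 per group), with a Benjamini-Hochberg threshold of 0.05 applied to all 11092 tested genes. The other 6 genes did not pass, Myd88 itself among them. Of all tested genes 14.0% passed, 7.62% as higher and 6.39% as lower. The median log2 fold change of the 10 genes was 0.41, against -0.0079 for all tested genes.

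**Figure D1:**
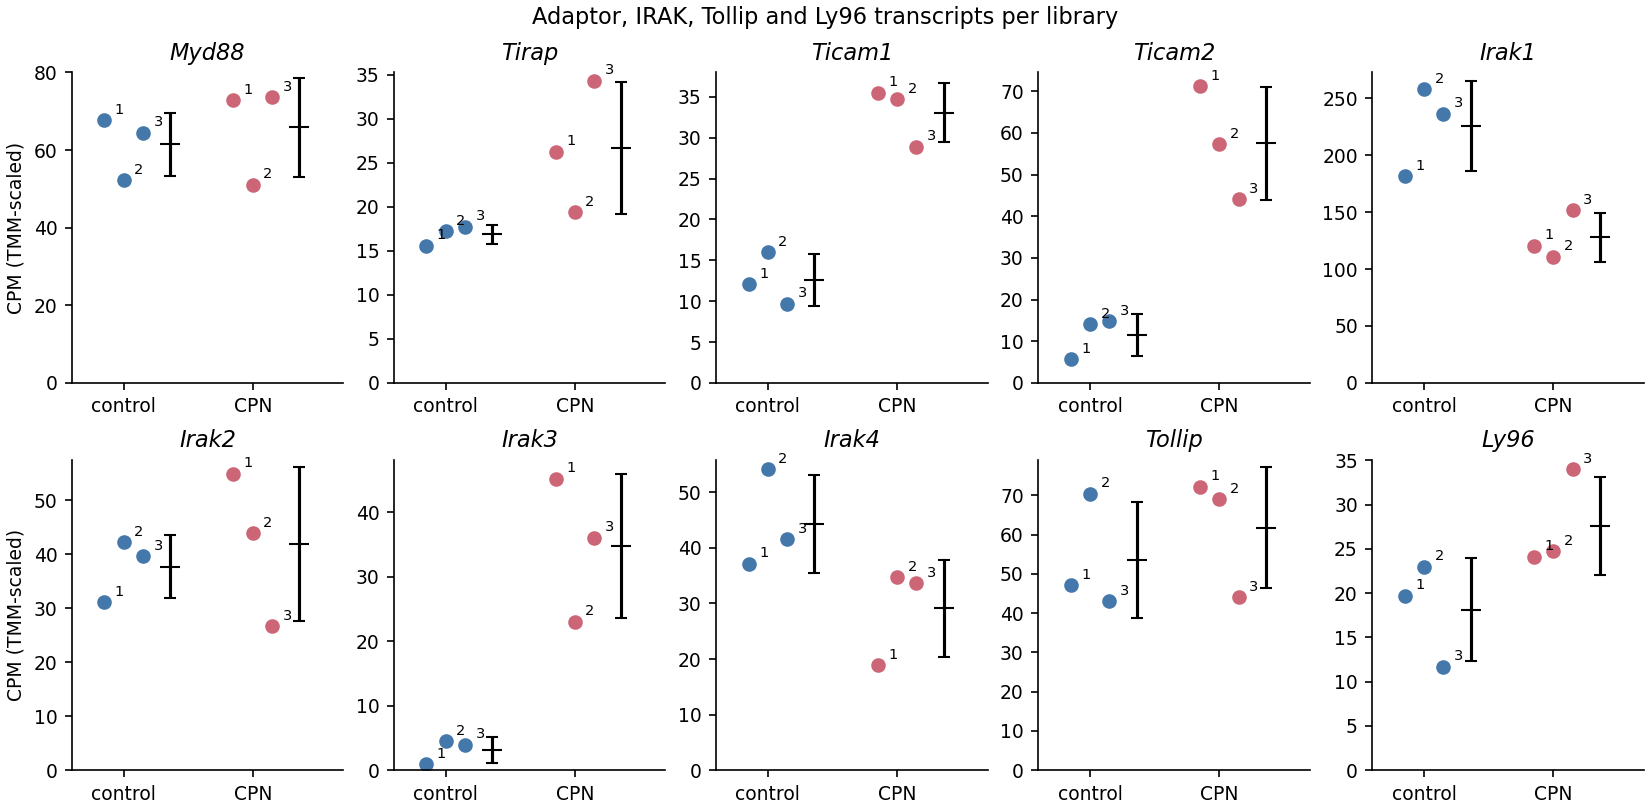
Transcript level of each of the 10 genes in every library, in CPM (TMM-scaled counts relative to library size) on a linear axis that starts at 0. Points are libraries, numbered by replicate, and black bars are the mean ± SD (n = 3). For Irak3, Ticam1 and Ticam2 all CPN points lie well above the control points, and for Irak1 they lie below.

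The promoter sequences come from RefSeq (build GRCm38.p6). They are shown for the genes that passed and had an entry among those used here. Myd88, the adaptor that recruits the IRAK kinases, is shown too, although it did not pass. The entries used covered 8 of the 10 genes. None was used for Ticam2 or Ly96, so the promoters of these genes were not searched, and nothing is said here about their motifs. Each runs 5′ to 3′ from 250 bases before the transcription start to 50 bases after it, and capitals mark every match to a motif listed below on either strand.
Irak3, inner start (chr10:120201548-120201847, minus strand): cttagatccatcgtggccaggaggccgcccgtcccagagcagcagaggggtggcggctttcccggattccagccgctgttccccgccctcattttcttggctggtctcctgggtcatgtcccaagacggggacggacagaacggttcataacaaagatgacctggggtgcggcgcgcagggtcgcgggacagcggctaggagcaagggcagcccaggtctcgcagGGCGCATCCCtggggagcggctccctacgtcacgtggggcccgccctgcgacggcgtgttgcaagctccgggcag
Irak3, outer start (chr10:120202081-120202380, minus strand): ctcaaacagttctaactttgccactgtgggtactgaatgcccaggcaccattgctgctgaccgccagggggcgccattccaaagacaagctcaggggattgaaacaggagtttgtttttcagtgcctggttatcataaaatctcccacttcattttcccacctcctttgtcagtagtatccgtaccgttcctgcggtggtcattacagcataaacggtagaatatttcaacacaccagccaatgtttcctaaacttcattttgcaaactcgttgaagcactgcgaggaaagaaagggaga
Ticam1 (chr17:56276718-56277017, minus strand): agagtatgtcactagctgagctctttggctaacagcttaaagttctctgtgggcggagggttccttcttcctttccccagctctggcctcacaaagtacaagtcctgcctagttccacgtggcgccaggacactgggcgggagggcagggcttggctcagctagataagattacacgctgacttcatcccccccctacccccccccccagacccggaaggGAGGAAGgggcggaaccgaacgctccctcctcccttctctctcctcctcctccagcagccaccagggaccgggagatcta
Irak1 (chrX:74023869-74024168, minus strand): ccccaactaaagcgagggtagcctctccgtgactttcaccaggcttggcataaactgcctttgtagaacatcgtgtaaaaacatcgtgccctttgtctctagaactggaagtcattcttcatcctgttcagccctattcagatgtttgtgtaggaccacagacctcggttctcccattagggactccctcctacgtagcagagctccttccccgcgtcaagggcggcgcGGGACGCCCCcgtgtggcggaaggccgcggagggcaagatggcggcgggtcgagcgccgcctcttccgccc
Myd88 (chr9:119339969-119340268, minus strand): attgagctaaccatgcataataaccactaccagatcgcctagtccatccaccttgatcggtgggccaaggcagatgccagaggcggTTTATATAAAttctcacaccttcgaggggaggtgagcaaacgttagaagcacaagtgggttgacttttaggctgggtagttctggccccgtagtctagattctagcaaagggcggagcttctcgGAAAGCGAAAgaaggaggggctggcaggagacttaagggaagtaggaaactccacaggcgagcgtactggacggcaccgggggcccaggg
The 7 motifs searched were GGGANNNNCC for NF-kB, GAAANNGAAA for the interferon-stimulated response element, GAGGAAG for PU.1, TATAAA for a TATA box, TGANTCA for AP-1, TGATGNAA for C/EBP-ATF and TGACNNNGC for NRF2. A position is that of the leftmost base as printed, counted from the start. The match GGCGCATCCC at the inner start of Irak3 (position -25, reverse strand) and GGGACGCCCC in Irak1 (position -21) both fit the NF-kB letters, so these letters stood in a gene that rose and in one that fell. The NF-kB letters were in 20.7% of all 32851 promoters of this length and also at the inner start of Tirap. A second Irak1 entry, not shown, held the same match as the first (position -18). The response element letters were in Myd88 alone among the entries of the 8 genes (GAAAGCGAAA, position -40) and in 3.44% of all promoters. Ticam1 held the PU.1 letters (position -30), as did 13.6% of all promoters. Myd88 held the TATAAA letters in 2 overlapping matches (positions -164 and -160, 1 on each strand), as did 13.6% of all promoters. The NRF2 letters were in Irak2 and Irak4 and in 12.4% of all promoters. The outer starts of Irak3 and Tirap and the promoter of Tollip held none of the 7. The AP-1 letters (7.81% of all promoters) and the C/EBP-ATF letters (3.97%) were in none of the 8 genes' entries. These matches describe the letters in these windows only.

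Library totals lay between 7957228 and 9713938 counts. For the 707 genes whose mean count was 6 to 12, the share of values at 0 was 14.0% in CPN 1 and 23.8% in control 3 and between 36.9% and 41.2% in the other libraries. In the labelled cell type, 7 of 8 macrophage markers were detected well enough to test, with Mrc1 too low, and their sum lay between 2009 and 2530 CPM in control and between 2306 and 2878 CPM in CPN. By edgeR's test 3 of the 7 were higher in CPN, namely Adgre1 (3.45-fold), Itgam (3.94-fold) and Fcgr1 (14.1-fold), Spi1 was 1.51-fold lower, and Csf1r, Cd68 and Lyz2 did not pass. Summed osteoclast markers lay between 3267 and 3532 CPM in control and between 952 and 1512 CPM in CPN, with 6 of 7 tested markers lower and Mmp9 higher. In these bulk libraries fewer osteoclast-like cells and less RNA per cell cannot be told apart. Of 7 granulocyte markers in the files, S100a8 was higher in CPN, S100a9, Mpo and Ltf had at most 6 counts each over all libraries, and Elane, Camp and Ngp were at 0, for a sum between 0 and 0.117 CPM in control and between 18.0 and 34.6 CPM in CPN. Of 7 stromal markers, Dcn was higher, Col1a1, Col1a2, Col3a1, Lum and Pdgfra were too low to test and Thy1 was at 0, for a sum between 0 and 6.23 CPM in control and between 12.2 and 20.4 CPM in CPN. The tested osteoclast markers, S100a8, Dcn and these 4 macrophage markers moved with the CPN label, and their part in the changes below was not tested.

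Myd88 encodes the adaptor used by nearly all Toll-like receptors and by the interleukin-1 receptor family (chromosome 9, 119335934 to 119341411, minus strand, GENCODE M21 on GRCm38). In replicate order, as for all values below, it had 67.7, 52.2 and 64.5 CPM in the 3 control libraries and 73.0, 51.1 and 73.6 CPM in the 3 CPN libraries. The groups overlapped, with replicate 2 the lowest in each. The log2 fold change of Myd88 was 0.099 ± 0.223 (SE) with a 95% interval of -0.38 to 0.58 (edgeR adjusted p = 0.838). The 5′ exons of Myd88 share 290 bases with Acaa1a on the opposite strand, a peroxisomal thiolase gene that fell from 173 ± 23.1 to 78.7 ± 9.05 CPM (SD, n = 3, edgeR adjusted p = 0.00143), but no base within 1000 bases of the 3′ end of Myd88, where this assay reads.

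Tirap encodes the bridging adaptor that brings MyD88 to TLR2 and TLR4 at the plasma membrane (chromosome 9, 35184551 to 35200291, minus strand). Its values were 15.6, 17.2 and 17.8 CPM in the 3 control libraries and 26.3, 19.4 and 34.4 CPM in the 3 CPN libraries. Every CPN value was above every control value, but CPN 2 lay close to the controls and the CPN values were spread widely. The log2 fold change of Tirap was 0.66 ± 0.317 with a 95% interval of -0.024 to 1.35 and did not pass (edgeR adjusted p = 0.208). Tirap shares 39 exonic bases at its 5′ end with Srpr, which encodes a signal recognition particle receptor subunit, lies on the opposite strand and rose by 0.95 on the log2 scale.

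Both adaptor genes of the TRIF branch were higher in CPN cells. Ticam1 encodes TRIF, the adaptor of TLR3 and of internalised TLR4 (chromosome 17, 56269319 to 56276786, minus strand). It had 123, 134 and 83 counts in the 3 control libraries and 296, 265 and 233 counts in the 3 CPN libraries, or 12.1, 16.1 and 9.70 CPM against 35.5, 34.7 and 28.9 CPM. The groups were well apart, with the lowest CPN value above the highest control value. The mean of Ticam1 rose from 12.6 ± 3.21 to 33.0 ± 3.61 CPM (SD, n = 3), which is 1.39 ± 0.312 on the log2 scale (edgeR adjusted p = 0.00972). The call of Ticam1 ended without control 3, its lowest control (1.23 on the log2 scale, edgeR adjusted p = 0.0531), and when control 3 and CPN 1, which held the fewest zeros, were both removed (1.18, edgeR adjusted p = 0.176).

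Ticam2 encodes TRAM, which links TRIF to TLR4 (chromosome 18, 46557291 to 46574533, minus strand). Control 1 to 3 had 58, 118 and 127 counts and CPN 1 to 3 had 594, 437 and 356 counts, or 5.69, 14.1 and 14.8 CPM against 71.3, 57.2 and 44.2 CPM. Control 1 was the lowest library, and the lowest CPN value was far above the highest control value. The mean of Ticam2 rose from 11.6 ± 5.09 to 57.6 ± 13.6 CPM, a log2 fold change of 2.32 ± 0.361 with a 95% interval of 1.54 to 3.10 (edgeR adjusted p = 0.000904). Ticam2 overlaps Tmed7, a gene of vesicle traffic between endoplasmic reticulum and Golgi that lies on the same strand and shares 838 exonic bases with it. None of these lies within 1000 bases of the 3′ end of Ticam2. The 3′ end of Tmed7 (46560235) lies inside the span of Ticam2, however. Whether the shared bases lie near that end was not examined, and strand could not assign reads from them. Tmed7 had 50.1 ± 15.8 CPM in control and 74.0 ± 6.81 CPM in CPN and did not pass (0.56 on the log2 scale, edgeR adjusted p = 0.174).

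Ticam1 and Ticam2 together took 17.6%, 30.3% and 23.0% of the counts of the 4 adaptor genes in control 1 to 3, and 51.8%, 56.6% and 40.4% in the 3 CPN libraries. This share, formed after the values were seen, was 23.6% ± 6.38 in control and 49.6% ± 8.35 in CPN (SD, n = 3), without overlap. It rests on between 832 and 1717 adaptor counts per library and needs no scaling between libraries.

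**Figure D2:**
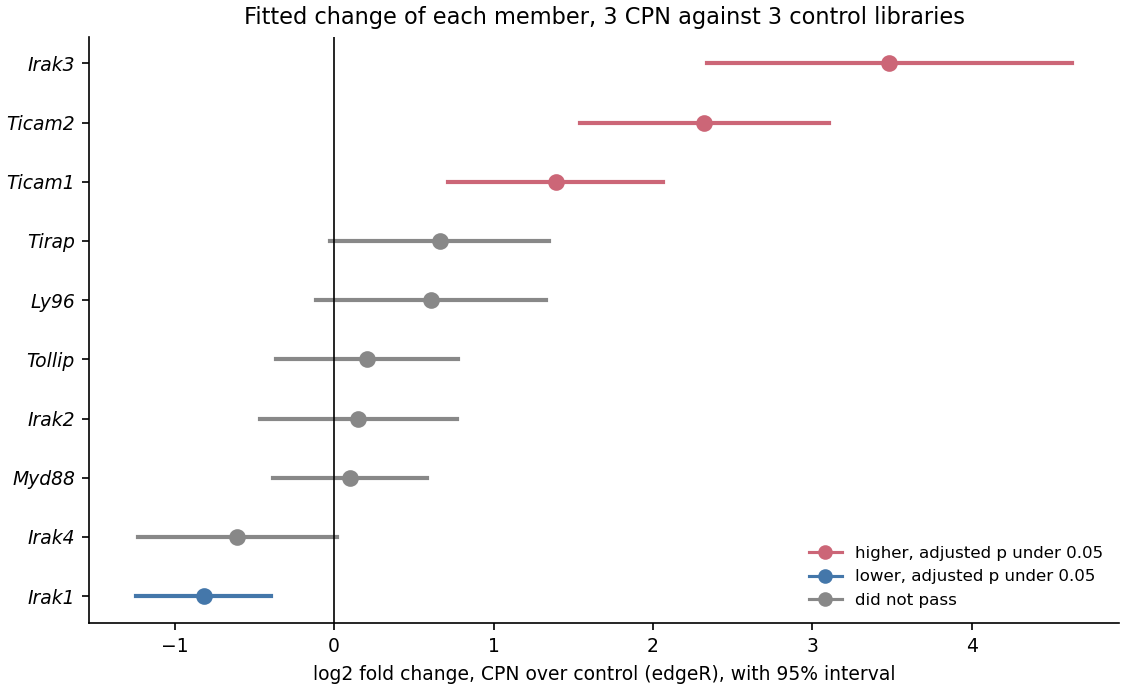
Fitted log2 fold change (CPN over control, edgeR) of each gene with its 95% interval, ordered by size. Red marks the 3 genes that were higher, blue the gene that was lower, and grey the 6 whose adjusted p was above 0.05; the intervals of Tirap, Ly96 and Irak4 cross 0 only near one end.

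Among the IRAK genes, Irak3 rose, Irak1 fell and the other two did not pass. Irak4 encodes the kinase that MyD88 recruits first and that phosphorylates IRAK1 (chromosome 15, 94543643 to 94581815, plus strand). It had 37.2, 54.1 and 41.6 CPM in the 3 control libraries and 19.0, 34.7 and 33.6 CPM in the 3 CPN libraries. All CPN values were below all controls, with CPN 1 the lowest, but CPN 2 lay close to control 1. The log2 fold change of Irak4 was -0.61 ± 0.287 with a 95% interval of -1.23 to 0.015 and did not pass (edgeR adjusted p = 0.202). Irak4 meets Twf1, an actin-binding protein gene on the opposite strand, tail to tail, and they share 292 exonic bases within 1000 bases of the 3′ end of Irak4. Because the use of strand in the counting is not given in the sources used here, reads from this stretch cannot be assigned to either gene, and Twf1 had 22.5 ± 10.6 CPM in control and 33.2 ± 5.80 CPM in CPN (edgeR adjusted p = 0.383).

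Irak1 encodes the kinase that IRAK4 activates and that passes the signal to TRAF6 (chromosome X, 74013914 to 74023918, minus strand). Control 1 to 3 had 1848, 2154 and 2024 counts and CPN 1 to 3 had 1004, 847 and 1224 counts, or 181, 258 and 236 CPM against 121, 111 and 152 CPM. The CPN values were all below the controls, with CPN 3 the nearest to control 1. The mean of Irak1 fell from 225 ± 39.6 to 128 ± 21.4 CPM, a log2 fold change of -0.82 ± 0.196 with a 95% interval of -1.24 to -0.39 (edgeR adjusted p = 0.0140). The call of Irak1 ended without control 3, CPN 1 or CPN 2 (edgeR adjusted p = 0.0668, 0.0559 and 0.0855), while its log2 fold change stayed between -0.96 and -0.69 over single libraries left out. No other measured gene overlaps Irak1.

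Irak2 encodes a relative of IRAK1 that sustains later signalling (chromosome 6, 113638467 to 113695026, plus strand). It had 31.1, 42.3 and 39.6 CPM in the 3 control libraries and 55.0, 43.9 and 26.7 CPM in the 3 CPN libraries. The CPN values lay on both sides of the controls, CPN 1 highest and CPN 3 lowest of all 6 libraries. Irak2 did not pass, at a log2 fold change of 0.15 ± 0.285 with a 95% interval of -0.46 to 0.77 (edgeR adjusted p = 0.800), and its sign turned without CPN 1 (-0.095).

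Irak3 encodes IRAK-M, a family member found mainly in myeloid cells that restrains signalling downstream of MyD88 (chromosome 10, 120141648 to 120202130, minus strand). It had 9, 38 and 34 counts in the 3 control libraries and 377, 176 and 291 counts in the 3 CPN libraries. The exact 95% Poisson interval of the lowest value, in control 1, was 4.12 to 17.1 counts, and that of the highest control value was 26.9 to 52.2 counts (counting error only). The interval of control 1 lay below those of the other controls. These intervals take each count as independent, and the true counting error may be wider. Whether control 1 differed from the other controls by more than that error was therefore not tested. Every CPN library was far above every control. In CPM the values were 0.883, 4.55 and 3.97 against 45.2, 23.1 and 36.1.

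The mean of Irak3 rose from 3.14 ± 1.97 to 34.8 ± 11.2 CPM (SD, n = 3), a log2 fold change of 3.48 ± 0.530 with a 95% interval of 2.34 to 4.63 (edgeR adjusted p = 0.000792). Of the fitted log2 fold changes of all tested genes 98.7% lay below that of Irak3, and 97.2% and 93.5% lay below those of Ticam2 and Ticam1. By p-value Irak3 ranked 266 and Ticam2 ranked 293 among the 11092 tested genes. Irak3 shares 192 exonic bases at its 5′ end with Tmbim4, a gene on the opposite strand that encodes a Golgi membrane protein. Tmbim4 had 66.6 ± 4.16 CPM in control and 78.3 ± 24.1 CPM in CPN and did not pass (edgeR adjusted p = 0.611).

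The make-up of the IRAK family counts was then compared between libraries, since such shares do not depend on the scaling. Irak3 took 0.353%, 1.27% and 1.24% of the summed IRAK counts in the 3 control libraries and 18.9%, 10.8% and 14.5% in the 3 CPN libraries. The nearest exact 95% binomial bounds (Clopper-Pearson, counting error only) were 1.74% in control and 9.37% in CPN. These bounds take each count as independent, and the true counting error may be wider. The mean share of Irak3 was 0.952% ± 0.519 in control and 14.8% ± 4.02 in CPN (SD, n = 3), a difference of 13.8 percentage points. The two-sided exact permutation test gave p = 0.1, the smallest that 3 against 3 can give, and 0.167 after Benjamini-Hochberg adjustment over the 5 shares computed.

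The share of Irak1 was 72.4%, 71.9% and 73.5% in the 3 control libraries and 50.3%, 52.2% and 61.2% in the 3 CPN libraries. The controls lay close together and the CPN libraries were all lower. The exact permutation test gave p = 0.1 for the Irak1 share, and 0.167 after the same adjustment. The IRAK shares make up a whole, so the rise of Irak3 and the fall of Irak1 on this measure are not separate observations. The share of Irak4 was between 12.9% and 15.1% in control and between 7.91% and 16.3% in CPN, with overlap. The share of Irak2 was between 11.8% and 12.4% in control and was 22.9%, 20.6% and 10.7% in the 3 CPN libraries, so CPN 3 stood apart from the other CPN libraries on this measure. The summed IRAK counts were between 2553 and 2997 in control and between 1623 and 2001 in CPN.

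**Figure D3:**
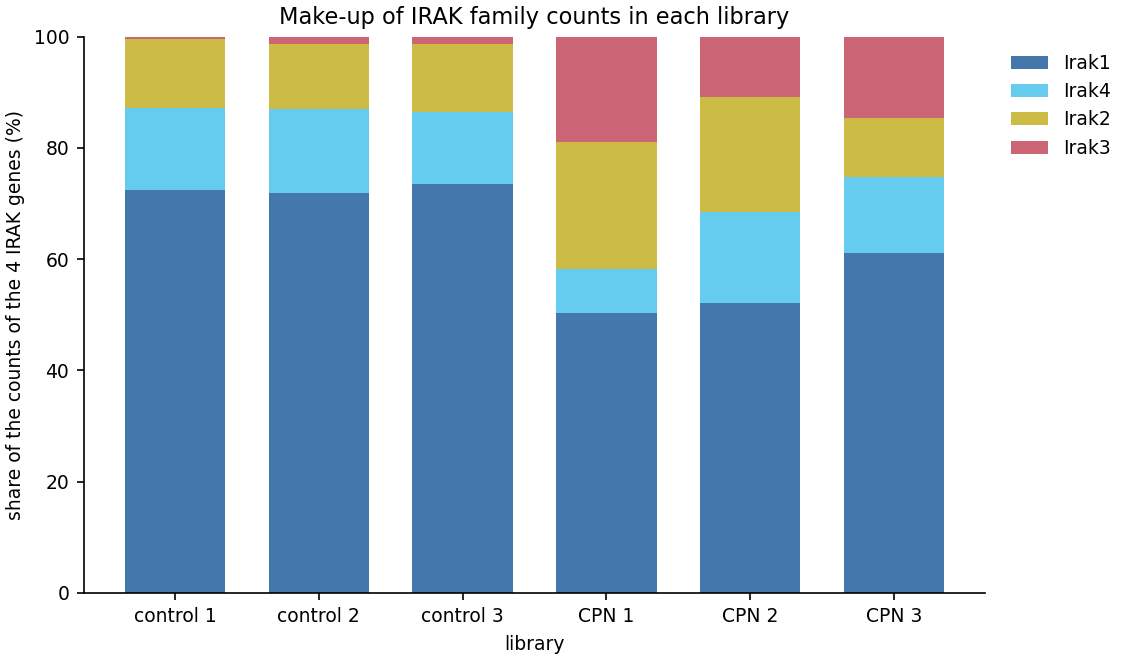
Share of each IRAK gene in the summed counts of Irak1 to Irak4, in percent, 1 stacked bar per library. Irak3 is a thin band of at most 1.27% in the control libraries and between 10.8% and 18.9% in the CPN libraries, while Irak1 is between 71.9% and 73.5% in control and between 50.3% and 61.2% in CPN.

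Tollip encodes an adaptor that binds IRAK1 and dampens signalling (chromosome 7, 141874813 to 141918507, minus strand). It had 47.2, 70.4 and 43.1 CPM in the 3 control libraries and 72.2, 69.0 and 44.0 CPM in the 3 CPN libraries. The groups covered nearly the same range. Tollip did not pass, at a log2 fold change of 0.21 ± 0.263 with a 95% interval of -0.36 to 0.77 (edgeR adjusted p = 0.690). The 2 inhibitors among the 10 genes thus differed in what was called, with Irak3 passing and Tollip not; the difference between their changes was not tested, and their 95% intervals did not overlap.

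Ly96 encodes MD-2, the secreted protein that binds lipopolysaccharide as the partner of TLR4 (chromosome 1, 16688051 to 16709611, plus strand). It had 19.7, 23.0 and 11.7 CPM in the 3 control libraries and 24.1, 24.8 and 34.0 CPM in the 3 CPN libraries. Every CPN value was above every control value, but control 2 and CPN 1 were close. The log2 fold change of Ly96 was 0.61 ± 0.334 with a 95% interval of -0.11 to 1.33 and did not pass (edgeR adjusted p = 0.282). Tlr4, the gene of its receptor partner, had 32.8 ± 13.2 CPM in control and 23.3 ± 2.89 CPM in CPN and did not pass (edgeR adjusted p = 0.370).

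For 7 of the 10 genes the ranges of the groups were apart, with CPN above for 5 (Tirap, Ticam1, Ticam2, Irak3 and Ly96) and below for 2 (Irak1 and Irak4). Over all tested genes the groups were apart for 32.6%, with CPN above for 16.9% and below for 15.7%. Neighbouring genes in the order of fold change, from Irak3 through Ticam2, Ticam1, Tirap, Ly96, Tollip, Irak2, Myd88 and Irak4 to Irak1, had overlapping 95% intervals. Irak3 and Ticam2 passed under all 15 alternative settings, Ticam1 under 13 and Irak1 under 11. None of the 6 other genes passed under any of them.

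**Figure D4:**
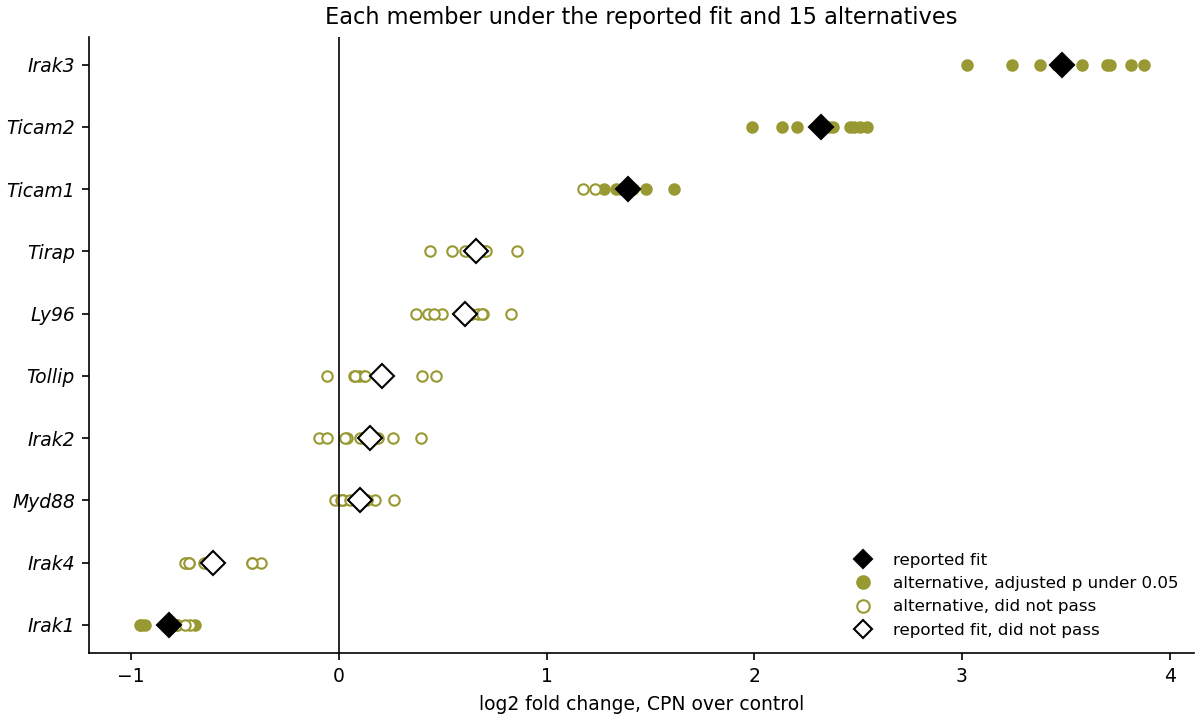
Log2 fold change (CPN over control) of each gene under the reported fit (diamonds) and 15 alternatives (circles), filled where the adjusted p was under 0.05. Irak3 spans 3.02 to 3.88 and Ticam2 spans 1.99 to 2.54 with every point filled, Ticam1 and Irak1 have 2 and 4 open circles, and the other genes have open symbols throughout.

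The steps before and after these genes were read from the lists of receptors, downstream kinases and inhibitors. Of 13 tested receptor and co-receptor genes 2 were higher and none was lower, a share of 15.4% beside 14.0% of all tested genes. These were Cd14, the co-receptor that delivers lipopolysaccharide to TLR4, which had 324 ± 148 CPM in CPN against 94.8 ± 40.2 CPM (edgeR adjusted p = 0.00358), and Hsp90b1, the endoplasmic reticulum chaperone gp96 that folds Toll-like receptors, which rose 3.43-fold. The other receptor genes that could be tested, Tlr2 and Tlr4 among them, did not pass, Tlr5, Tlr8, Tlr11, Tlr12 and Lbp were at 0 in every library and Tlr9 was too low to test. Among interleukin-1 family receptors, 4 of 8 could be tested, and Il1rl1, the interleukin-33 receptor ST2, fell from 18.0 ± 7.82 to 4.85 ± 2.70 CPM (edgeR adjusted p = 0.0357). It alone passed, 25% of the 4 tested beside 14.0% of all tested genes. Il1rl1 no longer passed when any of control 1, control 3, CPN 1 and CPN 2 was removed (highest adjusted p by edgeR 0.217), nor did Cd14 when control 3 and CPN 1 were both removed (0.105).

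Of 14 tested genes of the TRAF6, TAK1 and IKK steps, 1 was higher and none was lower, a share of 7.14% beside 14.0% of all tested genes. This was Peli1, a ubiquitin ligase that acts with IRAK1, which rose from 54.1 ± 4.24 to 199.8 ± 79.0 CPM (edgeR adjusted p = 0.000366). Traf6, the ubiquitin ligase shared with RANK, had 18.5 ± 4.16 CPM in control and 18.2 ± 3.64 CPM in CPN and did not pass (edgeR adjusted p = 0.973). Of 10 genes of the steps after TRIF, Ikbke, an inducible kinase of IRF3, rose 10.7-fold, reaching 36.9 ± 12.6 CPM against 3.46 ± 2.69 CPM (edgeR adjusted p = 0.000711), and its log2 fold change of 3.42 was 4.27 without control 3. The other 9 did not pass, so 10% of this list passed beside 14.0% of all tested genes. Tbk1, the related kinase, had 55.5 ± 18.1 CPM in control and 71.5 ± 24.1 CPM in CPN, and did not pass (edgeR adjusted p = 0.477). Irf3, the transcription factor these kinases activate, had 35.3, 32.6 and 22.0 CPM in control 1 to 3 against 14.8, 13.6 and 20.7 CPM in CPN 1 to 3, apart but close, and did not pass (edgeR adjusted p = 0.0940).

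Of 13 tested inhibitors of Toll-like receptor signalling outside the 10 genes, 1 was higher and 3 were lower. This was a share of 30.8% beside 14.0% of all tested genes. Tnip1, which acts with A20, rose 1.91-fold (edgeR adjusted p = 0.0382). Ptpn6 and Inpp5d, encoding the phosphatases SHP-1 and SHIP-1, fell 2.16-fold and 1.94-fold (edgeR adjusted p = 0.00309 and 0.0113). The third was Il1rl1, counted also among the receptors. Tnip1 no longer passed when any of the same 4 libraries was removed (highest adjusted p by edgeR 0.191), with library totals alone (0.0638) and with the replicate number as a block (0.0681), and Inpp5d no longer passed without control 3 (0.0757). The medians of these lists were 0.13 for receptors, -0.64 for interleukin-1 family receptors, 0.20 for the TRAF6, TAK1 and IKK steps, 0.24 for the steps after TRIF and 0.21 for inhibitors, on the log2 scale.

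**Figure D5:**
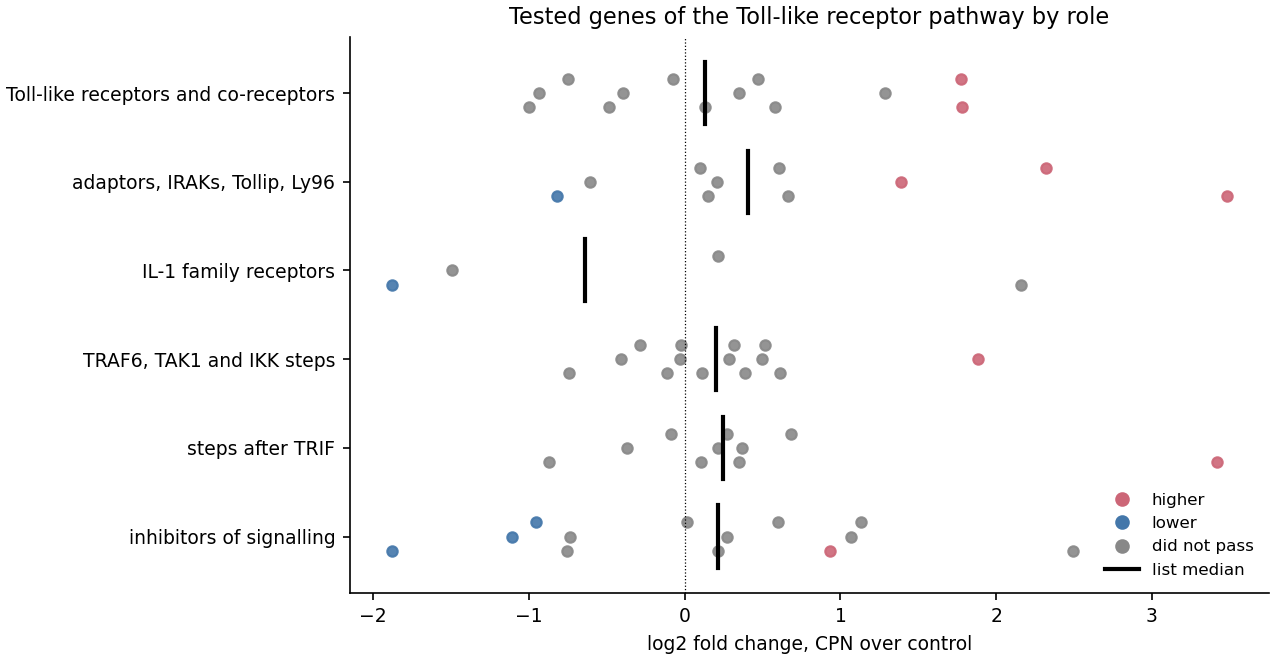
Log2 fold change (CPN over control) of every tested gene of the pathway, 1 row per role, with the list median as a black bar. Red and blue points passed as higher or lower; the farthest red points are Irak3 at 3.48 among the adaptors and kinases and Ikbke at 3.42 among the steps after TRIF.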

How the data were processed

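QuantSeq libraries, which read the 3′ ends of transcripts, were made from 3 control and 3 CPN samples of RAW 264.7 cells, per the labels' protocols. Each deposited table holds raw counts, as whole numbers, for 23282 gene entries. Bowtie2, bedtools and the build mm10 are named in the submitters' processing notes. Not given in the sources used here are versions, the gene annotation, whether strand was used and the treatment of multiply aligned reads or duplicates. Of 23238 symbols, 79 entries shared one with another entry and were kept apart.

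CPN was compared with control in R 4.3.3 by edgeR 4.0.16 (TMM on full library totals, filterByExpr with minimum count 10 and minimum total 15, quasi-likelihood test, Benjamini-Hochberg over 11092 genes, threshold 0.05). The SE is the log2 fold change divided by the square root of F. At these depths 3 counts are worth between 0.294 and 0.393 CPM. Alternatives used limma 3.58.1 (voom), DESeq2 1.42.0, other scalings and filters, a replicate block, and libraries left out. On simulated counts with known changes in this comparison (10848 genes tested), the test recovered 25 of 95 genes with a 2-fold change. It recovered 73 of 97 with a 4-fold change and called 4 of 10656 without one. Far fewer genes were changed there than passed in the data, and counts were drawn without scaling differences between libraries. Recovery in the data may therefore differ. Libraries of a group differed by more than sampling of independent counts would give (chi-square over its degrees of freedom at least 16.4). Whether the counts are independent was not tested. Gene positions are from GENCODE M21 (GRCm38, the assembly of mm10) and promoters from RefSeq on GRCm38.p6.

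The 10 genes, the pathway and marker lists and the motifs were chosen with earlier results of these data known. The rule names all 10 genes and up to 4 genes per pathway list with the smallest p among those that passed. It also names genes that overlap or lie next to the 10, where their counts bear on them. Tlr2, Tlr4, Traf6, Tbk1 and Irf3, and the named markers, fall outside it and were named after their values were seen. One marker list is not reported here.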

Additional observations from a re-analysis of the deposited data

How the results depend on the processing

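Irak3 and Ticam2 kept their direction and their call under all 15 alternatives, with log2 fold changes of 3.02 to 3.88 and 1.99 to 2.54. With 1 library left out, between 884 and 1954 of all tested genes passed, against 1554, the number of the 10 genes called higher was between 2 and 3 and the number called lower between 0 and 1. With control 3 and CPN 1 both removed, an alternative chosen after seeing the data, 446 genes passed, and of the 10 genes 2 were higher and 0 lower. Leaving libraries out leaves fewer samples. Scaling by library totals alone gave all tested genes a median log2 fold change of -0.129 in place of -0.0079 and a share of higher calls of 43.0% in place of 54.4%, with the same 3 higher and 1 lower gene among the 10. Signs turned only for genes that did not pass, and the cause was not tested: Myd88 was at -0.019 with library totals alone, Irak2 at -0.095 without CPN 1 (-0.095 to 0.39 over libraries left out) and at -0.057 without both libraries, and Tollip at -0.057 without both. The difference in the share of Irak3 was between 11.7 and 15.8 percentage points with 1 library left out and 17.1 with Irak2 left out of the denominator, by construction a smaller total. The difference in the share of Irak4, -1.69 percentage points, was between -3.56 and 0.649 with 1 library left out, positive without CPN 1. For the replicate number shared by the labels, correlations of same-numbered deviations were -0.181, 0.0279 and 0.0737. CPN 1 and CPN 3 each correlated best with a control of another number, and CPN 2 with control 2. With 3 libraries per group, these values cannot show whether the numbers mark pairs. With the replicate block, 1326 genes passed, and the same 3 higher and 1 lower gene passed among the 10. Depth limits Irak3 in control, with 9 to 38 counts per library.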
